A study of Mus musculus with 4 samples.

Results

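The transcription factors *Pou3f4*, *Prrx1*, *Prrx2*, *Twist1*, *Twist2*, *Osr1*, *Osr2*, *Runx2*, *Meox1* and *Tcf21* mark the periotic mesenchyme, the loose tissue that wraps the developing inner ear, or mesenchyme elsewhere in the embryo. These 10 genes were chosen by symbol from the 29924 gene names on the array. They were read by 13 of 39429 probes, and 9 of them passed the filter on dim signals, which left 21042 genes to be tested. 1 of the 9 fell in the mutant cochlear ducts. *Meox1* was 1.25-fold lower, and the log2 ratios of the other 8 lay between −0.049 and 0.25 and did not pass the test.

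Each of 4 arrays compared a pool of E14.5 mouse cochlear ducts from *Sox2-Tbx2LOF* mutants, genotype Sox2(creERT2);Tbx2(fl/fl), with a pool from controls, genotype Tbx2(fl/n.d.), which the methods of the study call cre-negative. All embryos were of the NMRI strain and came from dams given 4 mg of tamoxifen by mouth at E12.5, and the question was which transcripts change when *Tbx2* is deleted in the *Sox2* expression domain. The pools were female on arrays 1 and 2 and male on arrays 3 and 4, and mutant RNA carried the dye Cy5 on arrays 1 and 3 and Cy3 on arrays 2 and 4. Pools of the same number shared an array. CreERT2 is a recombinase that needs tamoxifen, and here it was expressed from the *Sox2* locus, which is active in the prosensory epithelium and in glia but is not known as a gene of the periotic mesenchyme. Each pool held the ducts of many embryos, so the spread between pools is not that between embryos. Cre-negative controls lack the knock-in, so *Tbx2* loss and knock-in cannot be told apart in these groups.

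The periotic mesenchyme condenses around the otic epithelium and gives rise to the cartilaginous otic capsule, to the fibrocytes of the lateral wall and to the lining of the fluid spaces. It exchanges signals with the epithelium, and loss of *Pou3f4*, a POU domain factor of this tissue, causes deafness in mice and humans. TWIST and PRRX proteins are basic helix-loop-helix and paired-type homeodomain factors of mesenchyme in head and limb. OSR proteins are zinc finger factors, RUNX2 is the master regulator of bone formation, MEOX1 is a homeodomain factor of the somites and TCF21 is a factor of visceral and head muscle mesenchyme.

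The probes are 60 bases long, and for the genes with a close relative or with several probes 30 bases are shown to let the reader see that they read different sequence. Capitals mark the longest run that a probe shares with the probe of its relative (for *Prrx2* that shared with the brighter *Prrx1* probe), and for *Runx2* the longest run that the brightest and the next brightest probe share. *Meox1*, the gene that fell, is shown without capitals.
*Meox1*: ctaagattacatcaagctaattgtgcaagg
*Twist1*: acaatcagaggaATTTTAacacctttagaa
*Twist2*: ttattgagatATTTTAccagctaagtgact
*Osr1*: aaacctccaagaTCAAATGctaaataaaca
*Osr2*: tccaaagaaaagccctTCAAATGtcaggag
*Prrx1*, brighter probe: gtgggaggttaaATTAAAccagaagtaatg
*Prrx1*, dimmer probe: catgagatattcATTAAAAgatctttctct
*Prrx2*: acttacttatgtATTAAAaccaaaaagctt
*Runx2*, brightest probe: caaagagtttgggaaataggcAAGGAGGGA
*Runx2*, next brightest probe: aAAGGAGGGActatggcgtcaaacagcctc
*Runx2*, dimmest probe: gcagcacgctattaaatccaaatttgccta
The longest shared run was 6 bases for *Twist1* and *Twist2*, 7 for *Osr1* and *Osr2*, 6 for the brighter and 7 for the dimmer *Prrx1* probe against *Prrx2* and 9 for the *Runx2* pair. No probe of another gene on the array shared a run of 20 bases with any of the 13 probes. The transcript named for each probe belongs to the gene of the same symbol in RefSeq for 13 of 13 probes.

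Between 69.2% and 72.0% of the probes were well above background in a channel, and no spot was saturated. The targeted gene checks the labels only weakly. *Tbx2* had a log2 ratio of −0.12 ± 0.10 (SD, n = 4) and was lower on 4 of 4 arrays without passing the test (limma adjusted p = 0.124), and *Sox2* had 0.012 ± 0.18. *Esr1*, whose receptor is part of CreERT2, was well above background in 4 mutant pools and 0 control pools. In tissue pooled in bulk, fewer cells of a type and less RNA per cell cannot be told apart. Precision was limited by there being 4 arrays. Signals given here are normalized log2 intensities of 1 probe and are compared between pools only, never between genes. A ratio is the mutant over the control pool of the same array on the log2 scale, and a gene passed the test at a Benjamini-Hochberg adjusted p below 0.05 over all 21042 genes. In all, 5.18% of the genes passed, 2.26% higher and 2.92% lower in the mutant, and 0.442% also changed at least 1.5-fold.

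9 of the 10 genes were well above background in all 8 pools. *Tcf21* was not well above background in any pool, so it is given no fold change. Its probe lies on the minus strand at chr10:22537563-22537622 (mm9), and its signal was between 1.24 and 1.37 times the local background in Cy3. For *Runx2*, the brightest of 3 probes was the only one well above background, and it belongs to a RefSeq transcript listed as non-coding. Both other *Runx2* probes, which belong to a coding transcript, were not well above background in any of the 8 pools. The remaining genes each had every probe above background in all pools. Thus 8 of the 10 genes were detected by probes of coding transcripts, *Runx2* by that of a non-coding transcript alone and *Tcf21* by none. In the same pools 21 of 22 mesenchyme and fibroblast markers and 18 of 18 epithelium markers were well above background in all 8 pools, so transcripts typical of both tissues were in the pools.

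*Meox1*, known as a regulator of the sclerotome and of vertebral joints, was lower in the *Sox2-Tbx2LOF* ducts. Its probe lies on the minus strand of chromosome 11 at chr11:101738847-101738906 (mm9). The signal was 10.08, 10.13, 10.15 and 10.25 in mutant pools 1 to 4 and 10.51, 10.31, 10.52 and 10.58 in control pools 1 to 4. Every mutant pool lay below every control pool, as was the case for 4.27% of all genes in either direction. The log2 ratio was −0.43, −0.18, −0.36 and −0.33 on arrays 1 to 4. It was lowest on array 1 and nearest to 0 on array 2, and it was below 0 with the mutant in either dye and in either sex. The mean was −0.33 ± 0.11 (SD, n = 4), so that the signal fell by 20.2%, and the 95% interval ran from 1.18-fold to 1.34-fold lower (limma adjusted p = 0.0036). The spots of the probe on 1 array varied with an SD between 0.044 and 0.072, less than the 0.105 between arrays. The signal was 30.1 to 46.4 times the background in Cy3 and 16.7 to 22.4 times in Cy5. Without array 1 the log2 ratio was −0.31 with a limma adjusted p of 0.0528, and with the pools taken as unpaired it was −0.33 with 0.06.

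Some markers of neurons and of Schwann cell precursors were lower too, as 2.92% of all genes were. The methods of the study state that the spiral ganglion, which holds the afferent neurons, was removed from these ducts. Among 9 tested neuron markers 6 fell and 1 rose, with a median log2 ratio of −0.39, and the mean signal over the list was 10.58 to 10.74 in mutant pools and 10.88 to 11.14 in control pools. *Elavl3*, which encodes a neuronal RNA-binding protein, fell by 1.08 and *Nefm*, a neurofilament subunit, by 0.72 on the log2 scale. Among 8 tested markers of Schwann cell precursors 3 fell and 1 rose, with a mean signal of 10.90 to 11.00 in mutant and 11.22 to 11.31 in control pools. *Foxd3*, a neural crest factor, fell by 1.17, *Fabp7*, a glial fatty acid binding protein, by 1.03 and *Cdh19*, a cadherin of glial precursors, by 0.63. The paper lists *Fabp7* among lowered genes described in the inner compartment of the sensory epithelium, so its fall need not be one of glia. These 5 markers were named because they passed the test with a fall of at least 1.5-fold, which makes the same direction on all arrays likely. They were lower on 4 of 4 arrays, as *Meox1* was, and 18.2% of all genes kept 1 direction on 4 of 4. In all 8 pools, 9 of 10 neuron and 8 of 8 Schwann cell precursor markers were well above background. The part of these cells in the *Meox1* result was not tested, nor was how much of the ganglion the pools still held.

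**Figure D1:**
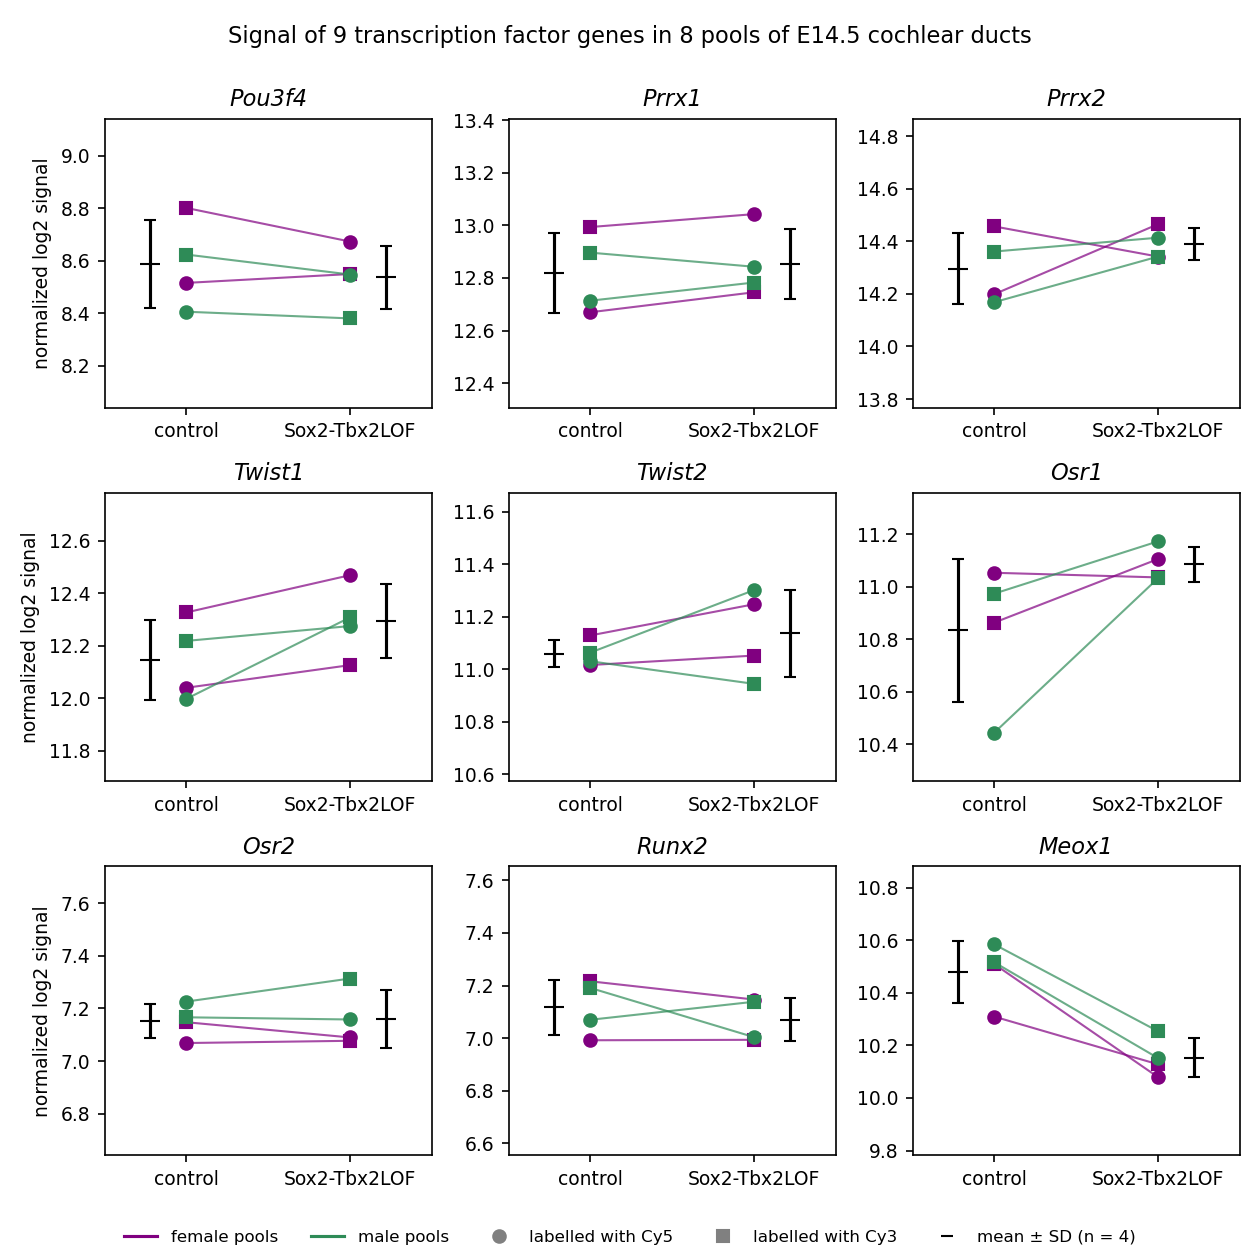
Normalized log2 signal (vertical axes, each spanning the same range) of the 9 tested genes in control and *Sox2-Tbx2LOF* pools, with a line joining the pools of 1 array and the mean ± SD of 4 pools in black. Only for *Meox1* do all 4 mutant pools, at 10.08 to 10.25, lie below all 4 control pools, at 10.31 to 10.58.

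The basic helix-loop-helix factors *Twist1* and *Twist2* both act in head mesenchyme, where TWIST1 holds cells in an undifferentiated state and patterns the skull. The *Twist1* probe lies on the plus strand at chr12:34644411-34644470. *Twist1* had a signal of 12.47, 12.13, 12.27 and 12.31 in mutant pools 1 to 4 and 12.33, 12.04, 12.22 and 12.00 in control pools. The groups overlapped, but on each array the mutant pool was the higher one. The log2 ratio was 0.14, 0.086, 0.056 and 0.31, with a mean of 0.15 ± 0.11 (SD, n = 4), a 95% interval from 0.043 to 0.25 and a limma adjusted p of 0.116. The same direction on 4 of 4 arrays was seen in 18.2% of all genes and in 2 of these 9, *Meox1* and *Twist1*. Without array 2 the ratio of *Twist1* was 0.20 and passed (limma adjusted p = 0.0419), with array 4 alone standing for the mutant in Cy3.

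*Twist2*, read on the plus strand at chr1:93744519-93744577, had a signal of 11.25, 11.05, 11.30 and 10.94 in mutant pools and 11.13, 11.02, 11.06 and 11.03 in control pools. The mutant pools in Cy5 were the 2 highest of the 8, and 1 mutant pool in Cy3 was the lowest. The log2 ratio was 0.12, 0.036, 0.24 and −0.086 on arrays 1 to 4, so array 4 alone lay below 0. The mean was 0.077 ± 0.14 (SD, n = 4; 95% interval −0.016 to 0.17, limma adjusted p = 0.338). The mean was 0.18 over the arrays with the mutant in Cy5 and −0.025 over those with the mutant in Cy3.

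The odd-skipped related genes *Osr1* and *Osr2* are known from the mesenchyme of kidney, palate, limb and jaw. *Osr1*, on the plus strand at chr12:9587390-9587449, had a signal of 11.10, 11.03, 11.17 and 11.03 in mutant pools and 10.86, 11.05, 10.97 and 10.44 in control pools. Mutant pools lay close together, while the male control pool 4 was lower than the other 7 pools. The log2 ratio was 0.24, −0.018, 0.20 and 0.59 on arrays 1 to 4, with a mean of 0.25 ± 0.25 (SD, n = 4), as large as its own spread. The 95% interval ran from 0.056 to 0.45 and the limma adjusted p was 0.146. Without array 4 the ratio was 0.10, and without array 2 it was 0.40 and passed (limma adjusted p = 0.00089). In the fit without array 2, array 4 with its low control pool alone stood for the mutant in Cy3. The value of *Osr1* thus moved with the array left out, and with it the call.

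*Osr2* was read by a probe whose 60 bases span 1016 bases of the genome on the plus strand, at chr15:35230691-35231706, and therefore lie in more than 1 exon. Its signal was 7.09, 7.08, 7.16 and 7.31 in mutant pools and 7.15, 7.07, 7.17 and 7.23 in control pools, and the groups overlapped almost fully. The mean ratio was 0.0075 ± 0.060 (SD, n = 4; 95% interval −0.075 to 0.090, limma adjusted p = 0.936). The probe was dim, at 1.77 to 2.06 times the background in Cy5, and the background correction used draws the ratios of such probes towards 0.

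The paired-related homeobox genes *Prrx1* and *Prrx2* act together in the skeleton of head and limb, and mice without both have inner ear defects. *Prrx1* was read on the minus strand by 2 probes 10033 bases apart. The brighter one, at chr1:165175375-165175434, had a signal of 13.04, 12.75, 12.84 and 12.78 in mutant pools and 12.99, 12.67, 12.90 and 12.71 in control pools. Both pools of array 1 were higher than all others, and on no array did the mutant differ from its control by more than 0.076. The mean ratio was 0.035 ± 0.060 (SD, n = 4; 95% interval −0.048 to 0.12, limma adjusted p = 0.65). The other probe, at chr1:165185408-165185467, belongs to another transcript of *Prrx1* and gave a mean ratio of −0.015 ± 0.13 (SD, n = 4), so the probes differed in sign by less than the spread between arrays.

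*Prrx2*, on the plus strand at chr2:30736678-30736737, had a signal of 14.34, 14.47, 14.41 and 14.34 in mutant pools and 14.46, 14.20, 14.36 and 14.17 in control pools. The control pools in Cy5 were the 2 lowest of the 8. The log2 ratio was −0.11, 0.27, 0.053 and 0.17 on arrays 1 to 4, so array 1 alone lay below 0. The mean was 0.094 ± 0.16 (SD, n = 4; limma adjusted p = 0.255), with −0.031 over the arrays with the mutant in Cy5 and 0.22 over those with the mutant in Cy3.

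*Pou3f4*, the POU domain factor of the periotic mesenchyme, lies on the X chromosome, and its probe on the plus strand at chrX:108010778-108010837. Its signal was 8.67, 8.55, 8.55 and 8.38 in mutant pools and 8.80, 8.52, 8.62 and 8.41 in control pools. Array 1 was highest and array 4 lowest in both groups, and the groups overlapped. The ratio was −0.13, 0.034, −0.076 and −0.025 on the 4 arrays, with a mean of −0.049 ± 0.069 (SD, n = 4; 95% interval −0.13 to 0.032, limma adjusted p = 0.497). The lower end of this interval is a signal 1.09-fold lower in the mutant.

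For *Runx2* the brightest probe, on the minus strand at chr17:44633034-44633093, had a signal of 7.15, 6.99, 7.00 and 7.14 in mutant pools and 7.22, 6.99, 7.19 and 7.07 in control pools. The groups overlapped, and the mean ratio was −0.047 ± 0.11 (SD, n = 4; 95% interval −0.13 to 0.041, limma adjusted p = 0.554). The probe was at 1.72 to 2.01 times the background in Cy5. The probes not well above background, at chr17:44951128-44951187 and chr17:44744925-44744984, lie 318094 and 111891 bases from it. Of 8 osteoblast markers 0 passed the test, against 5.18% of all genes, and with 8 genes this count does not stand apart from its background. Their median ratio was −0.056, with 6 ratios below 0 and 2 above. *Dmp1* and *Spp1*, each at −0.20, were lower on 4 of 4 arrays without passing (limma adjusted p = 0.0988 and 0.0875).

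**Figure D2:**
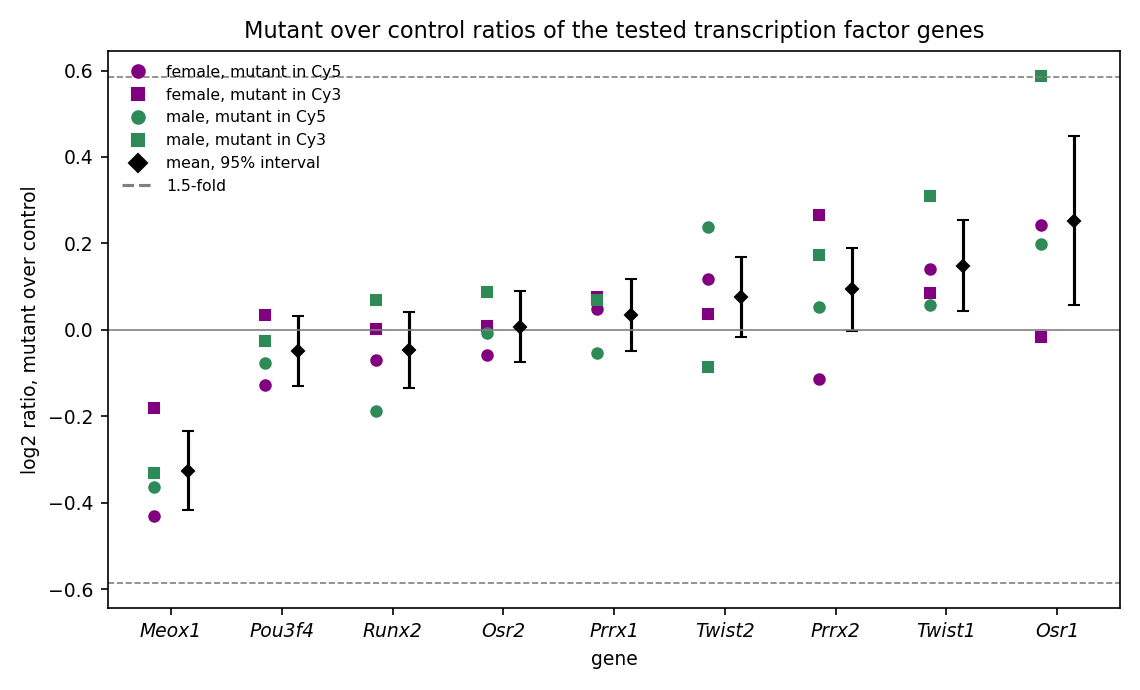
Log2 ratio of mutant over control (vertical axis) of the 9 tested genes on the 4 arrays, coloured by sex with circles for the mutant in Cy5 and squares for Cy3, beside the limma mean with its 95% interval in black. The interval of *Meox1* lies below 0, those of *Twist1* and *Osr1* above 0 without passing the test over all genes, and no mean reaches the dashed lines of 1.5-fold.

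Of the 9 tested genes, 1 passed the test, against 5.18% of all genes, and 0 reached a change of 1.5-fold, against 0.442%. With 9 genes neither count stands apart from its background. The median log2 ratio was 0.035 for the 9 genes and 0.0024 for all genes. The median size of the ratio, whatever its sign, was 0.077 against 0.043. The genes did not move as a block, since 6 ratios were above 0 and 3 below.

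The sexes were compared between arrays, since each array held pools of 1 sex. The difference of the genotype effect between male and female pools passed the test in 0 of 21042 genes with limma, and 2.65% had an unadjusted p below 0.05. None of the 9 genes was among the latter. It was largest for *Osr1*, at 0.28 on the log2 scale (unadjusted p = 0.0656, limma adjusted p = 1.00), with a ratio of 0.11 in female and 0.39 in male pools. For *Meox1* the ratios were −0.31 in female and −0.35 in male pools. The level itself differed between the sexes in 13 genes, or 0.0618%, and in 0 of the 9. At an unadjusted p below 0.05 it differed in 3.36% of all genes and again in 0 of the 9. For X-linked *Pou3f4* the male pools were lower by 0.15 (limma adjusted p = 1.00). Each sex had 2 arrays, so only large differences were detectable.

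**Figure D3:**
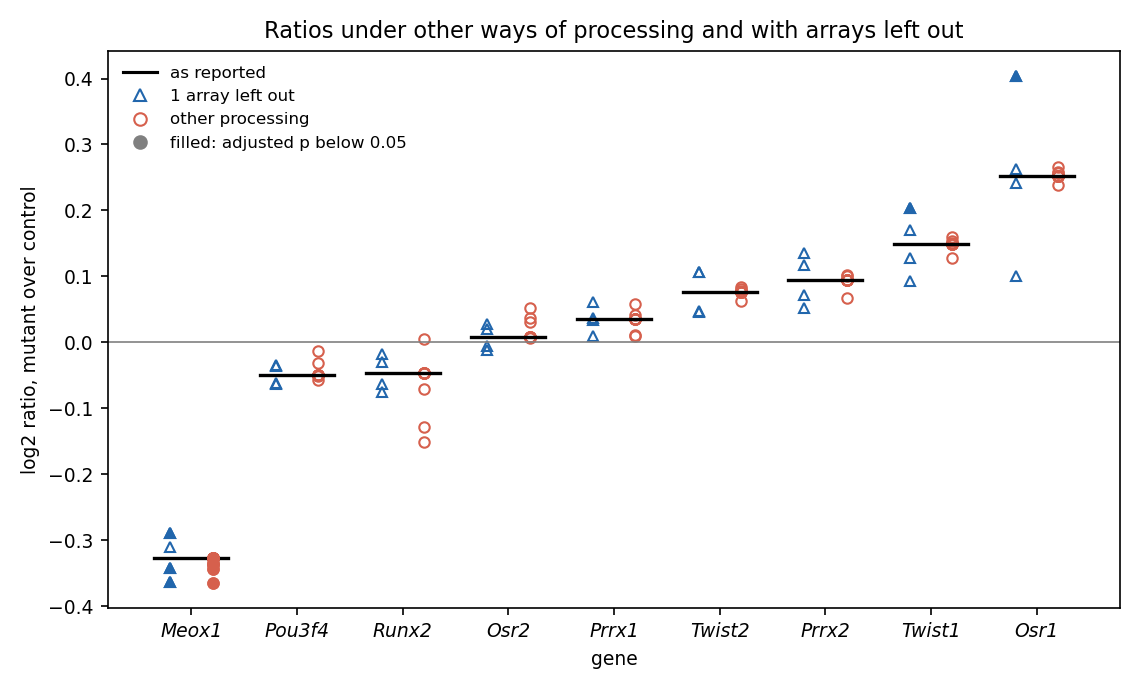
Log2 ratio of mutant over control (vertical axis) of each tested gene as reported (black line), with 1 array left out (triangles) and under other ways of processing (circles); filled symbols have an adjusted p below 0.05. *Meox1* stays between −0.36 and −0.29, while *Osr1* moves between 0.10 and 0.40 as arrays are left out.

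Other factors of mesenchyme moved little. Among 33 tested of 35 other mesenchymal transcription factors, 0 rose and 1 fell, with a median log2 ratio of 0.023. That is 3.03% of the list, against 5.18% of all genes. *Msx2*, a homeodomain target of BMP signalling, fell by 0.18 ± 0.18 (SD, n = 4; limma adjusted p = 0.0279), on 3 of 4 arrays, and its ratio was −0.32 and −0.34 with the mutant in Cy3 but −0.047 and 0.0011 with the mutant in Cy5. *Meox2*, the paralogue of *Meox1*, was chosen after its values were seen. Its ratio was 0.11 ± 0.11 (SD, n = 4), above 0 on 4 of 4 arrays (limma adjusted p = 0.214), so it did not share the fall. *Tbx18*, a T-box factor of otic fibrocytes also named after its values were seen, had a ratio of 0.040 ± 0.22.

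The 17 tested partners and relatives of these factors, such as the E proteins that pair with TWIST and the RUNX partner *Cbfb*, had a median of 0.019. 1 rose and 1 fell, or 11.8% of the list against 5.18% of all genes. *Msc*, a basic helix-loop-helix repressor of muscle precursors, rose by 0.21 ± 0.066 (SD, n = 4; limma adjusted p = 0.0277) on 4 of 4 arrays. *Pou3f2*, a relative of *Pou3f4* known chiefly from neural cells, had a ratio of −0.24 ± 0.20 (SD, n = 4; limma adjusted p = 0.0277), below 0 on 4 of 4 arrays. The size differed with the dye, at −0.30 and −0.47 with the mutant in Cy5 and −0.0029 and −0.17 in Cy3.

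Among the structural and surface markers of mesenchyme 1 of 21 tested was higher and 1 lower, with a median of 0.055. That is 9.52% of the list, against 5.18% of all genes. *Col1a1*, a chain of type I collagen, rose by 0.27 ± 0.12 (SD, n = 4; limma adjusted p = 0.0045), with 0.15 and 0.19 in Cy5 and 0.39 and 0.35 in Cy3. The other chain, *Col1a2*, had a ratio of 0.28 ± 0.21 without passing (limma adjusted p = 0.066), and the receptor gene *Pdgfra* one of 0.094 ± 0.096 (limma adjusted p = 0.274). *Postn*, a matrix protein of fibroblasts, was lower on 4 of 4 arrays, at −0.26 ± 0.16 (SD, n = 4; limma adjusted p = 0.0112). Its ratio was −0.42 and −0.36 with the mutant in Cy5 and −0.055 and −0.21 in Cy3. Mean signals over the list overlapped, at 13.26 to 13.37 in mutant and 13.20 to 13.36 in control pools.

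Of 14 tested markers of cartilage and the otic capsule 2 rose, against 2.26% of all genes, and 0 fell, with a median of 0.038. *Epyc*, a small leucine-rich proteoglycan of cartilage that is also made in the cochlear epithelium, rose by 0.43 ± 0.37 and *Col9a1*, a chain of type IX collagen found in both tissues too, by 0.22 ± 0.13 (SD, n = 4). Both were above 0 on 4 of 4 arrays, but the size differed with the dye. *Epyc* had 0.93 and 0.49 with the mutant in Cy3 and 0.096 and 0.22 in Cy5. *Col9a1* had 0.36 and 0.31 in Cy3 and 0.081 and 0.15 in Cy5. Of 18 tested epithelium markers 2 rose and 4 fell, with a median of 0.027. Thus 33.3% of this list passed the test, against 5.18% of all genes. *Otoa*, which attaches the tectorial membrane to the inner cochlear epithelium, fell by 0.76 ± 0.060 (SD, n = 4). The defining epithelium markers did not pass, with 0.020 ± 0.15 for *Epcam* and 0.18 ± 0.24 for *Cdh1*.

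**Figure D4:**
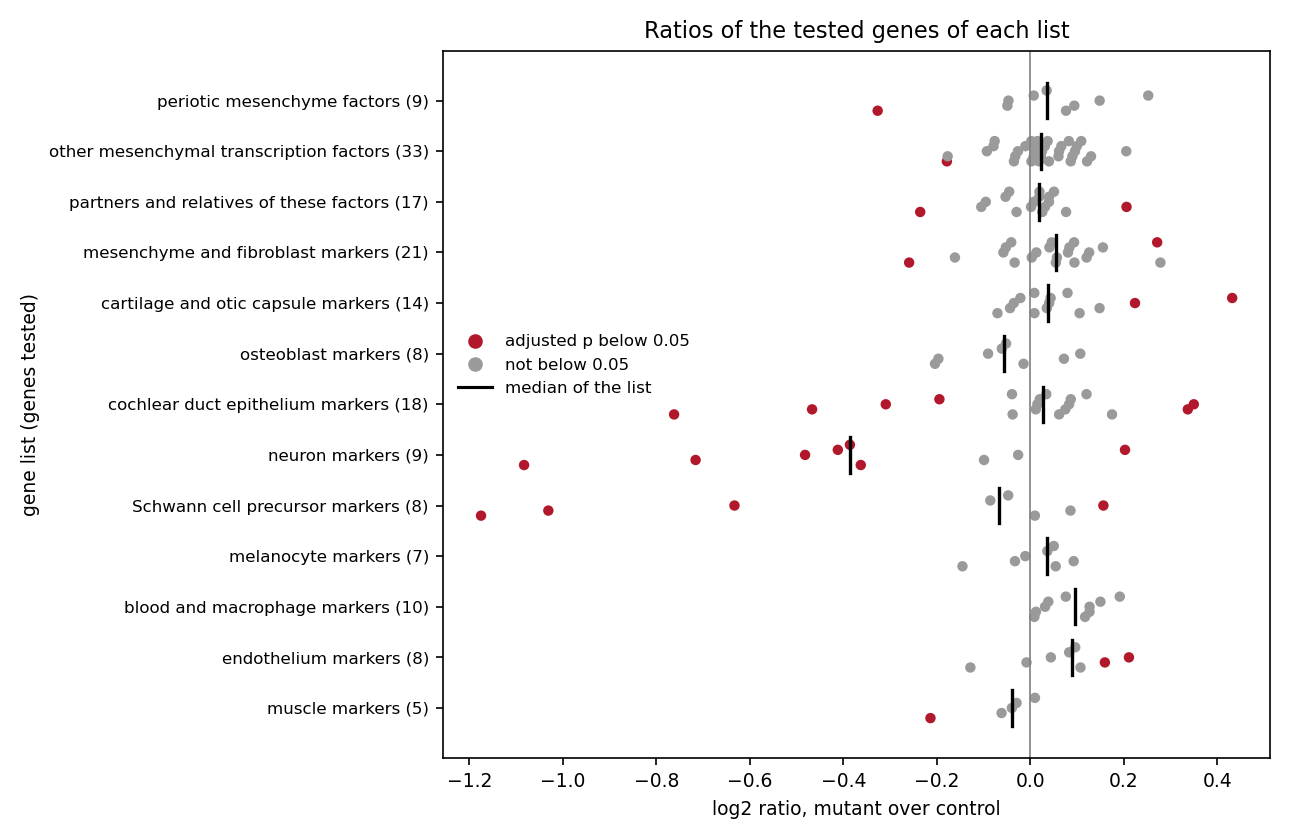
Log2 ratio of mutant over control (horizontal axis) of the tested genes of each list (rows, number tested in brackets), with genes past an adjusted p of 0.05 in red, the others in grey and the median of the list as a black line. The periotic mesenchyme factors have a median of 0.035 with *Meox1* apart on the left, and the neuron markers a median of −0.39.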

How the data were processed

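The data are 4 Agilent 2-colour arrays of 8 pools of cochlear duct RNA at E14.5, grouped by the sample labels. The authors deposited, per array, the output of Agilent Feature Extraction 10.7.3.1 with intensity values of each spot and its background, not normalized, flags for outlier spots and for spots well above background, and a log10 ratio of the dyes, which was not used further. The authors' series table holds a score per probe, a signed fold change between mutant and control whose normalization is not stated. It served as an alternative after conversion to log2 ratios (r between 0.912 and 0.942 with those computed here, medians between −0.0013 and 0.0094). The file header names another array design than the methods, with each probe in 4 spots. Symbols and mm9 positions are those of the files, and exons and UTRs were not analysed here.

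Background was corrected with normexp (offset 50) and ratios with loess in limma 3.58.1 (R 4.3.3). Outlier spots (8.29% to 8.56%) were dropped and the spots of a probe averaged. A probe was tested, as 27963 were, if well above background in 4 or more of 8 channel measurements, and the brightest stood for its gene. Signals of single pools were normalized by loess and Aquantile. Ratios were fitted with lmFit and eBayes with a dye intercept (2 residual and 5.65 prior degrees of freedom). Both pools of a number share an array and a sex, so the pairing is by hybridisation. The interaction with sex was fitted on the ratios, and levels were compared between sexes with the array as a random block. The fits were tested on simulated data.

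The 10 genes and all lists were chosen with earlier results of these data known. Named were the 10 genes with every probe, of each further list the genes past the 1.5-fold call or else up to 2 with an adjusted p below 0.05 and the largest ratio, 4 defining markers, the genes most like the mean of the 9 tested genes, and *Tbx2*, *Sox2* and *Esr1*. Alternatives changed the offset, the signals, the centring, the filter on dim probes, the dye term, the pairing or the probe summary, or left out an array. With an array left out the dye intercept stayed, so the array left alone in its dye orientation weighed as much as both of the other. Sequences were read from the array files and matched by accession to RefSeq.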

Additional observations from a re-analysis of the deposited data

How the results depend on the processing

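*Meox1* was lower under all 14 alternatives, with log2 ratios from −0.36 to −0.29. Those that changed the dim-probe filter, the dye term, the pairing or the probe summary could not move a ratio read by 1 probe. They kept it at −0.33 and changed at most its error and adjusted p. Of 15 values including the reported one 13 passed the limma test. The exceptions were the fit without array 1 (−0.31, adjusted p = 0.0528) and the separate channels without the array as a replicate block (−0.33, adjusted p = 0.06), which left 0 of the 9 genes past the test and 195 genes in all. With the array as a block every count was that of the reported fit. Among all genes, Agilent's processed signals gave 52 genes higher and 117 lower by at least 1.5-fold and 616 with an adjusted p below 0.05, the authors' series values 99 lower and 414, and the fit without a dye term 264. With each array left out in turn, 27 to 34 genes were higher, 61 to 69 lower, 411 to 1278 had an adjusted p below 0.05 and 0 to 3 of the 9 genes passed, with their median ratio between 0.020 and 0.047. The 3 came without array 2, where *Twist1* (0.20) and *Osr1* (0.40) joined *Meox1*. *Osr2* lay between −0.012 and 0.027 with an array left out and was below 0 without array 3 (−0.0049) and without array 4, and *Runx2*, reported at −0.047, lay between −0.15 with the authors' series values and 0.0056 with median centring, with −0.13 from Agilent's processed signals. The cause of these differences was not tested. The block by slide or scan was not run because all 4 arrays lie on 1 slide and 1 scan. Dim probes limit *Osr2* and *Runx2*, and *Tcf21* gave no value above background.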

Other observations

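Markers of other cells that a dissected duct can hold were measured too. Of all genes, 2.26% passed as higher and 2.92% as lower. The lists that follow hold few genes, so their counts cannot be set firmly against these shares. Endothelium markers had a median log2 ratio of 0.090, with 2 of 8 higher and 0 lower. *Cldn5*, a tight junction protein of vessels, rose by 0.21 ± 0.037 and *Esam*, an endothelial adhesion molecule, by 0.16 ± 0.066 (SD, n = 4), both on 4 of 4 arrays. All 10 blood and macrophage markers had ratios above 0, as did 10873 of 21042 tested genes, with a median of 0.097, but 0 passed the limma test. The largest ratios, of *Hba-a1* and *Hbb-bh1*, split by dye. With the mutant in Cy5 they were 0.45 and 0.73 for *Hba-a1* and 0.52 and 0.47 for *Hbb-bh1*. With the mutant in Cy3 they were −0.29 and −0.13, and −0.37 and −0.024. Of 7 melanocyte markers 0 passed, with a median of 0.037. Of 5 tested muscle markers 1 fell, the cardiac actin gene *Actc1* by 0.21 ± 0.12 (SD, n = 4), with a median of −0.039.

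Over the 8 pools, centred per dye, the mean signal of the 9 tested transcription factor genes was above 0 in both pools of array 1 (0.089 in the mutant, 0.074 in the control) and of array 3 (0.053 and 0.026). It was below 0 in both pools of array 2 (−0.068 and −0.059) and of array 4 (−0.032 and −0.083). This mean followed the array, and the arrays above 0 share a dye orientation. Single genes did not all do so. *Meox1* was lower in every mutant pool than in every control pool, and *Osr2* had its highest signals on array 4 (7.31 in the mutant, 7.23 in the control). The genes whose signals were most like this mean were *Shisa3* (Pearson's r = 0.994), *Batf* (0.990), *Spn* (0.986), *Hoxa2* (0.982) and *Sp7* (0.982), over 8 pools that share 4 arrays. They are the top of a search through all other tested genes, against a mean that followed the array. Whether they are expressed together with the 9 genes was not tested. Over the ratios of 4 arrays the genes most like the mean were *Stox1*, *C530043K16Rik*, *Pmf1*, *TC1648943* and *Ampd2*, each with r rounding to 1.000, a likeness that 4 points give to many of 21042 genes.

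None of 39 groups of 4 values of the 10 genes held a value set apart from the other 3 by Dixon's criterion for 4 values, the low control pool of *Osr1* included.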
